A study of Homo sapiens with 8 samples.

Results

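Ribosome footprints were compared with input RNA in U2OS cells that carried an empty vector. U2OS is an established human osteosarcoma line. The comparison uses 4 of the 8 libraries of the series: 2 input libraries (RNA of the whole lysate) and 2 footprint libraries (fragments of 17 to 34 nt from pelleted ribosomes). The other 4 libraries are the same pair of library types from U2OS cells that overexpress QKI7, one splice form of QKI, a protein that binds RNA. Every culture, vector and QKI7 alike, had been in 0.5 mM NaAsO2 (sodium arsenite) for 1 h, so these data hold no unstressed cells and no comparison below measures the response to arsenite. Nothing in the labels tells if the 2 libraries in each group are from different cultures. All p-values therefore measure only library-to-library spread, possibly technical, and 2 against 2 libraries cannot give an exact permutation p below 0.333. Of 26902 entries in the authors' table, 7387 were compared: those whose vector inputs averaged 1 TPM or more, after small nuclear, nucleolar and ribosomal RNAs, microRNAs, 7SL-like RNAs, histone genes with older HIST names and spike-ins were dropped by name.

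A translating ribosome covers a short stretch of mRNA and protects it from nuclease, so footprints per transcript, set against the amount of that transcript, report how many ribosomes it carries. Arsenite causes oxidative and proteotoxic stress and leads to phosphorylation of the initiation factor eIF2, which lowers initiation on most mRNAs. mRNAs such as ATF4 carry upstream open reading frames (uORFs) and are known to be translated better under these conditions, while mRNAs of the translation machinery start with an oligopyrimidine tract (TOP), through which their translation is controlled as a group. Stalled mRNAs gather in stress granules around proteins such as G3BP1.

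Most of the deposited TPM lay outside the 7387 entries. The entries dropped by name held 95.7% and 95.4% of TPM in the 2 vector inputs and 99.2% and 99.1% in the 2 vector footprints, and the entries kept held 3.94% and 4.21%, then 0.643% and 0.647%. Each library was therefore rescaled to the same sum over the kept entries, called rescaled TPM here. After rescaling, the smallest step of the deposited footprint values equals 1.56 and 1.55 rescaled TPM, and 130 kept entries are listed at 0 in both footprint libraries. Replicates correlated at Pearson r = 0.988 for inputs and 0.932 for footprints over the log2 values of the 7387 entries, which are not independent of each other. Of 12 mesenchymal markers 9 passed the input minimum, 7 above and 2 below the median ratio described next. The 12 summed to 185 and 190 TPM as deposited in the inputs and 73.5 and 73.8 TPM in the footprints. None of the 6 epithelial, 6 blood and 6 neural markers passed, and each of these lists summed to at most 1.61 TPM in any of the 4 libraries.

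The footprints were far more unequal between genes than the RNA. The 100 highest entries held 26.9% and 26.5% of the input sum and 52.9% and 52.8% of the footprint sum. With equal sums a small number of entries thus stood above the input and most stood below it: 935 entries (12.7% of those tested) were higher in footprints and 5547 (75.1%) were lower, by limma with Benjamini-Hochberg adjustment over all 7387 entries. With each library centred on its median instead, 2331 were higher and 2753 lower, and on the deposited scale (1 added to TPM as deposited, where most footprint values are under the pseudocount) 155 were higher. The median log2 ratio was -1.97. Ratios are therefore given relative to this median, as the relative log2 ratio, in which 0 is the middle entry and 1 is a ratio 2 times that of the middle entry. This zero point was chosen after the data had been seen. On it, 2634 entries (35.7%) lay above the median ratio, 2306 (31.2%) lay below it and 2447 were not called. Against a difference of more than 2-fold (limma's treat), 1583 entries (21.4%) were above and 811 (11%) below. The 1583 held 22.6% of the input sum and 84.1% of the footprint sum, and the 811 held 23.2% and 1.34%. The quartiles of the relative log2 ratio over all entries were -1.10 and 1.32. All log2 values are on the log2(rescaled TPM + 1) scale, on which changes of low values come out too small.

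**Figure D1:**
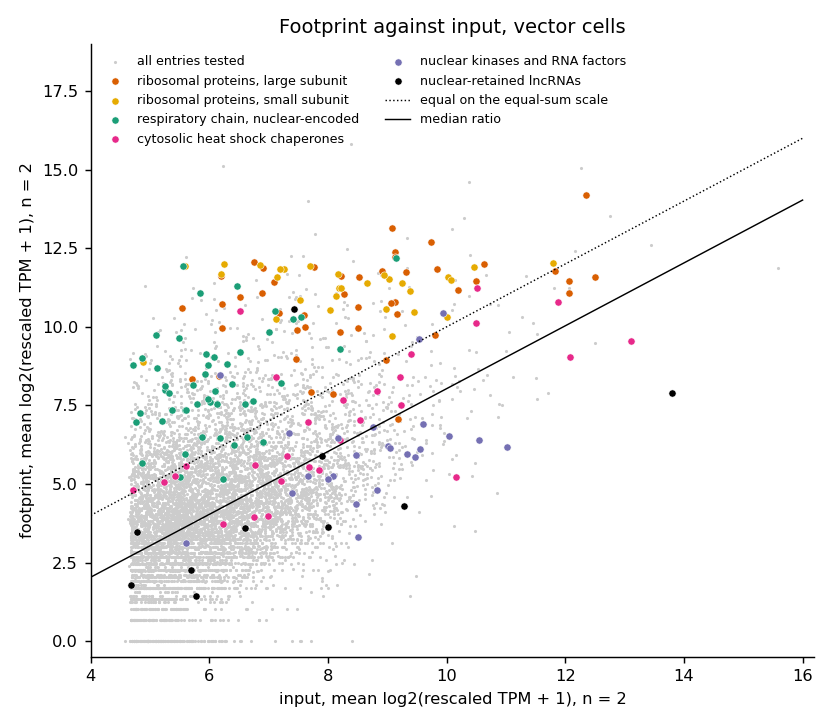
Mean log2(rescaled TPM + 1) of the 2 vector footprint libraries against that of the 2 vector input libraries for the 7387 entries, with 6 gene lists in colour; the dotted line marks equal values and the solid line the median log2 ratio of -1.97. Small-subunit ribosomal protein genes form a band at high footprint values over a wide range of input. Footprints of large-subunit and respiratory chain genes span 141-fold and 134-fold, and these genes lie above the solid line with few exceptions. Nuclear-retained RNAs lie mostly below the solid line.

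The start sites below show the feature by which the first group is known. TOP mRNAs begin with a C followed by an unbroken run of pyrimidines, and each line gives 15 bases before and 15 bases after the start of the RefSeq gene (GRCh38.p14), 5′ to 3′ on the gene's strand, with the pyrimidine run at the start in capitals. The first 9 genes had relative log2 ratios from 5.00 to 8.36. EEF2 and RPL35 have the run and ratios of 0.18 and 1.36. The last 3 genes have no such run at the RefSeq start. RPS26 had a high ratio of 6.62, and DNAJB1 and MYH9 had low ratios of -2.96 and -1.86. The lines shown are picked examples and do not measure how the run goes with the ratio. Among genes not shown, RPS28, COX7B and TIMP1 lack the run and were at 7.47, 7.19 and 7.15. NPM1 and SREBF2 have it and were at 1.16 and -0.62. The start used in these cells was not measured, so a missing run does not show that the mRNA lacks a TOP tract.
RPS13, chr11:17077653-17077682, minus strand: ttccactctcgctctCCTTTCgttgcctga
RPL29, chr3:51995881-51995910, minus strand: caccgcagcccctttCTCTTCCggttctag
RPL35A, chr3:197950175-197950204, plus strand: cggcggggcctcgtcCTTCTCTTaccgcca
RPL34, chr4:108620561-108620590, plus strand: aaaggcttttttcttCCTCTTCCggggacg
RPS12, chr6:132814554-132814583, plus strand: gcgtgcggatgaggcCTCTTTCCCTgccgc
RPL39, chrX:119791616-119791645, minus strand: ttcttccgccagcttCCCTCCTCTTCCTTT
RACK1, chr5:181243892-181243921, minus strand: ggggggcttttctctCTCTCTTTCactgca
EEF1A1, chr6:73521018-73521047, minus strand: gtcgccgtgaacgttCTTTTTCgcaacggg
COX7C, chr5:86617926-86617955, plus strand: ccatttcccatctttCTTTTCagtccttgc
EEF2, chr19:3985449-3985478, minus strand: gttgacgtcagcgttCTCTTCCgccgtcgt
RPL35, chr9:124861943-124861972, minus strand: agccccgcctacttcCTCTTTCCCTCggag
RPS26, chr12:56041903-56041932, plus strand: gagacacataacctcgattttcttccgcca
DNAJB1, chr19:14529257-14529286, minus strand: gggggcggggtaagaagttgagtgacaggc
MYH9, chr22:36387953-36387982, minus strand: ggtgcggtgaggcgcgcagatcaccgcggt
A C followed by 4 pyrimidines, each C or T, exactly at the RefSeq start on the gene's own strand was found in 25 of 37 large-subunit genes with a promoter sequence (67.6%), 16 of 22 small-subunit genes (72.7%) and 12 of 15 other TOP genes (80.0%). It was found in 6.04% of 5749 tested protein-coding entries and 4.04% of 27305 RefSeq promoters. The 347 entries that have it had a median relative log2 ratio of 0.79 and the 5402 that do not had 0.04. The 347 include the ribosomal protein and other TOP genes just counted. With the motif allowed within 10 bases of the start, the medians were 0.19 for 1940 entries with it and 0.03 for 3809 without.

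The ribosomal protein mRNAs carried the largest share of the footprints of any list. In the inputs the 75 tested members held 5.46% and 5.61% of the kept sum, and in the footprints 20.5% and 20.4%. Of 46 tested large-subunit genes 45 lay above the median ratio and none below (median relative log2 ratio 4.38), and all 29 tested small-subunit genes lay above (median 4.79). RPL13A, with 614 and 551 rescaled TPM in the inputs and 146 and 121 in the footprints, was the exception, and is named because it is the only one not called. RPL and RPS genes have many processed pseudogenes, to which short reads can also map. All 75 have at least 1 pseudogene named after them in RefSeq, so no copy-free subset exists for this group and the division of reads among copies is uncertain.

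RPS13, of the small subunit (Entrez gene 6207, chr11:17074388-17077667), had 48.2 and 46.6 rescaled TPM in the inputs and 3879 and 4012 in the footprints. Both footprint values lay far above both input values, with a relative log2 ratio of 8.32 (SE 0.068, adjusted p = 2.68e-09). RPS15A went from 80.4 and 70.5 to 4219 and 3975 (7.71), and RPS28 from 76.6 and 67.9 to 3315 and 3301 (7.47). In the large subunit the highest were RPL29 (61.4 and 84.6 in inputs, 3201 and 3085 in footprints, ratio 7.39), RPL35A (106 and 108, then 4453 and 4193, ratio 7.29) and RPL34 (41.1 and 50.4, then 1454 and 1669, ratio 7.03). The groups of libraries did not overlap for any of these 6, as for 7007 of all 7387 entries. RPS26, RPS12, RPS14, RPL39 and RPS10 had relative log2 ratios from 6.19 to 6.62 and were among the 12 highest protein-coding entries with an input of at least 5 TPM.

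Several of the most abundant ribosomal protein mRNAs had low ratios for this group, though above the median of all entries. RPL19, with 5549 and 5988 rescaled TPM in the inputs, had 3021 and 3179 in the footprints, a relative log2 ratio of 1.07 (adjusted p = 1.14e-05) and a lower footprint than input on the equal-sum scale. RPL4 had 4206 and 4300 in inputs and 2271 and 2043 in footprints (0.99), and RPL35 had 4176 and 4394, then 2996 and 2644 (1.36). These 3 fell on the other side of the median when only the 2674 entries whose footprints averaged 0.2 TPM or more were used, at -0.73, -0.82 and -0.44, and on the deposited scale. RPL38 differed from them, with 5094 and 5374 in inputs and 19111 and 18563 in footprints (3.81).

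Footprints of the small-subunit genes were more alike than their RNAs. Mean input over the 29 genes ran over a 126-fold range, with an SD of 1.55 on the log2 scale, and mean footprints over an 8.94-fold range with an SD of 0.77. For the 46 large-subunit genes the ranges were 126-fold in inputs and 141-fold in footprints (SD 1.80 and 1.44). Across the 75 genes, which share libraries and are not replicates, log2 input and the relative log2 ratio correlated at r = -0.75, and log2 input and log2 footprint at r = 0.30. The first of these shares the input values on both of its sides.

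**Figure D2:**
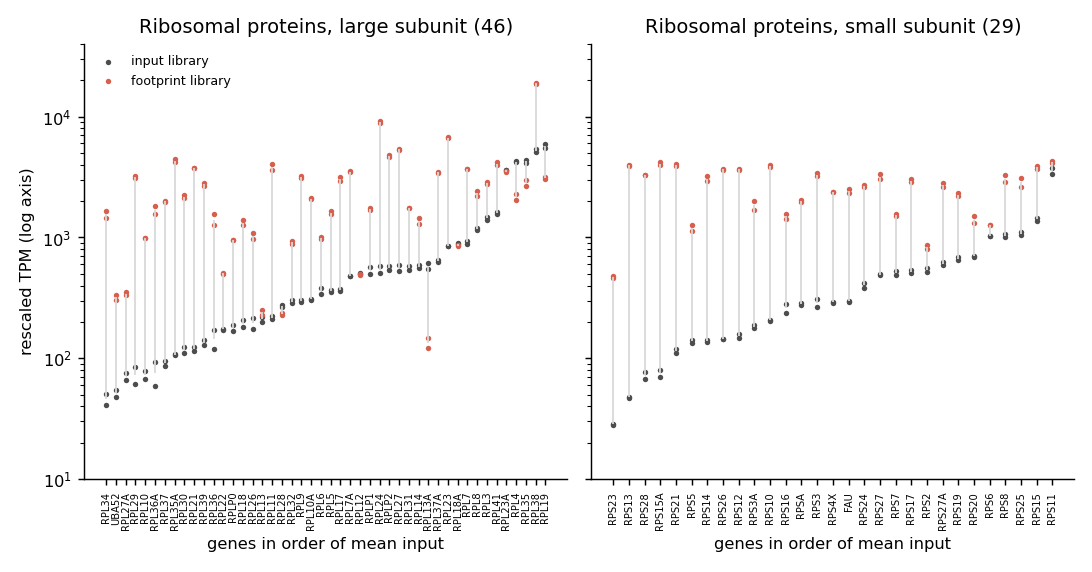
Rescaled TPM (log axis) of 46 large-subunit and 29 small-subunit ribosomal protein genes in the 2 vector input and 2 vector footprint libraries, with genes in order of mean input and a grey line between the 2 means. Inputs span 126-fold in each subunit, while the small-subunit footprints stay within an 8.94-fold range.

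Elongation factors and the other known TOP mRNAs lay above the median in 20 of 21 cases (median 2.96). RACK1, a scaffold protein of the small subunit, had 170 and 170 rescaled TPM in inputs and 2150 and 2264 in footprints (5.66), and EIF3K, a subunit of initiation factor 3, had 201 and 193, then 2385 and 2303 (5.53). EEF1A1, which delivers aminoacyl-tRNA to the ribosome (chr6:73515750-73521032), had 1077 and 1089 in inputs and 9016 and 8727 in footprints (5.00, SE 0.0402, adjusted p = 2.68e-09). BTF3, a nascent chain binding factor, was at 5.34, and TPT1, known as a translationally controlled tumour protein, at 1.99 (197 and 196 in inputs, 190 and 210 in footprints), though at -0.44 on the deposited scale. The translocase EEF2 stood apart: its inputs were 2057 and 2061 and its footprints 588 and 604, a relative log2 ratio of 0.18 (adjusted p = 0.0315). That call was lost without any 1 of 6 libraries, with adjusted p from 0.0594 to 0.253 (each vector library and each QKI7 input), and with the replicate block (adjusted p = 0.0632), and its direction turned under 4 alternatives, the lowest value being -2.60 on the deposited scale. PABPC1, the poly(A)-binding protein, was the only one called below, at -0.30 (adjusted p = 0.0235; 879 and 872 in inputs, 187 and 176 in footprints). Its call was lost without either vector input (adjusted p = 0.0955 and 0.0926) or without 1 vector footprint (adjusted p = 0.0549), and at an input minimum of 5 TPM its value was 0.16. Over the 4 list members without a named pseudogene the median was 0.90 rather than 2.96.

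Initiation factors lay on both sides of the median. Of 29 tested, 22 lay above and 5 below (median 1.87, or 0.46 over the 15 without a named pseudogene). The highest called members were EIF6, which keeps the ribosomal subunits apart, at 4.85 (58.9 and 62.2 in inputs, 434 and 470 in footprints), EIF1, which guards start codon choice, at 4.35 (321 and 316, then 1727 and 1599), and EIF5A at 4.27 (306 and 304, then 1551 and 1467). The lowest were EIF3A at -1.76 (1814 and 1897, then 149 and 130), EIF4G3 at -1.91 (109 and 113, then 4.67 and 9.27) and EIF4G1 at -1.04 (948 and 947, then 118 and 116). EIF5, whose uORF is known to limit its own synthesis, was at 1.07 (189 and 194, then 90.2 and 116), but at -0.87 on the deposited scale and -0.73 among entries with at least 0.2 TPM in footprints.

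The enzymes that charge tRNAs and the mitochondrial ribosomal proteins lay above the median as well. Of 20 cytosolic aminoacyl-tRNA synthetases 17 were above and none below, with a median of 1.39, yet the list's median was -0.41 among entries with at least 0.2 TPM in footprints and -0.62 on the deposited scale. FARSB, a phenylalanyl-tRNA synthetase subunit, had 28.2 and 43.9 rescaled TPM in inputs and 85.6 and 119 in footprints (3.46), RARS, for arginine, was at 3.43 and QARS, for glutamine, at 2.27. Of 46 tested mitochondrial ribosomal proteins 39 were above and none below (median 2.82). MRPL13 had 21.3 and 30.2 in inputs and 299 and 250 in footprints (5.35), MRPS17 was at 4.95 and MRPS28 at 4.54. A further 34 of the 80 listed mitochondrial ribosomal proteins were under the input minimum, and 26 of these averaged 0.2 TPM or more in footprints, so the input minimum removed members that footprints detected.

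**Figure D3:**
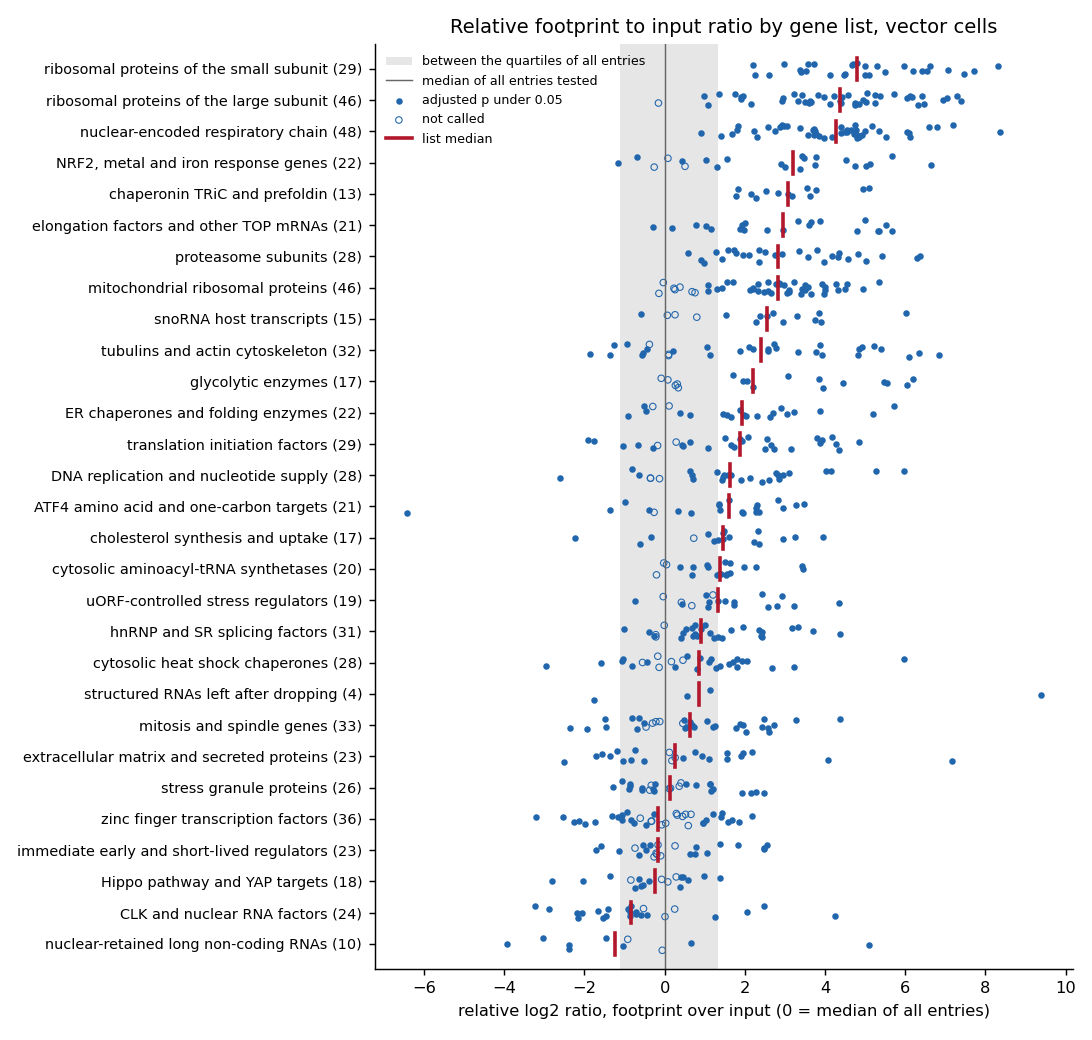
Relative log2 ratio of footprint over input (0 is the median of all 7387 entries) for each tested member of 29 gene lists, in order of the list median (red bar); filled points passed an adjusted p of 0.05, open points did not, and the grey band runs between the quartiles of all entries. Both ribosomal protein lists and the respiratory chain list have medians above 4, and the CLK and nuclear-retained RNA lists have the lowest medians, -0.85 and -1.25.

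The regulators that carry uORFs mostly lay above the median, with 14 of 19 above and PPP1R15A alone below (median 1.34, but -0.08 among entries with at least 0.2 TPM in footprints and -0.02 on the deposited scale). ATF4, which drives transcription once eIF2 is phosphorylated (chr22:39520559-39522686), had 1353 and 1297 rescaled TPM in the inputs and 2050 and 1984 in the footprints. Both footprint values lay above both inputs, and the relative log2 ratio was 2.57 (SE 0.0467, adjusted p = 2.89e-08), with -0.44 on the deposited scale. ATF5, a related factor, had 80.9 and 75.8, then 126 and 158 (2.81), and CEBPB had 37.6 and 31.1, then 77.8 and 89.6 (3.23). AZIN1, an inhibitor of the inhibitor of polyamine synthesis, was at 2.42, PPP1R15B at 1.34 and IFRD1 at 1.02; PPP1R15B and IFRD1 were at -0.17 and -0.26 on the deposited scale and at -0.46 and -0.78 among entries with at least 0.2 TPM in footprints. SLC35A4 was under the input minimum, at 0.59 and 0.54 TPM in inputs and 0.19 and 0.22 in footprints as deposited.

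DDIT3, also called CHOP, had 614 and 705 in inputs and 230 and 223 in footprints, a relative log2 ratio of 0.43 (adjusted p = 0.0029), which was -0.06 at a pseudocount of 10 and -1.37 among entries with at least 0.2 TPM in footprints. PPP1R15A, also called GADD34, which directs the phosphatase that reverses eIF2 phosphorylation, had 2208 and 2233 rescaled TPM in the inputs and 342 and 334 in the footprints. It was below the median at -0.74 (SE 0.0846, adjusted p = 0.000241). Whether the ratios of 2 members differ was not tested.

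Targets of ATF4 in amino acid and one-carbon metabolism lay above in 16 of 21 cases and below in 4, with a median of 1.61 (-0.17 on the deposited scale). SHMT2, the mitochondrial serine hydroxymethyltransferase, had 101 and 95 in inputs and 280 and 283 in footprints (3.48). ASNS, asparagine synthetase, was at 3.28 and the glutamine transporter SLC1A5 at 2.95. VEGFA, the vascular growth factor, had 244 and 262, then 35.8 and 27.8 (-1.0), and the repressor JDP2 had 62.4 and 63.2, then 4.67 and 6.18 (-1.35). CBS, cystathionine beta-synthase, had inputs of 338 and 337 and was listed at 0 in both footprints; a nearly identical copy of the gene exists in the reference genome, so its value is uncertain and no fold is given.

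Of 28 tested cytosolic heat shock chaperones 17 lay above and 6 below (median 0.85, -0.82 among entries with at least 0.2 TPM in footprints and -1.0 on the deposited scale). HSPA1A, the stress-inducible HSP70 (chr6:31815543-31817942), was among the most abundant mRNAs, with 8796 and 8811 rescaled TPM in inputs, and had 698 and 799 in footprints. It lay below the median at -1.59 (SE 0.0813, adjusted p = 4.12e-06); it has a near-identical neighbour, HSPA1B, so the split of reads between them is uncertain. DNAJB1, the inducible HSP40 that works with it, had 1131 and 1139 in inputs and 32.7 and 40.2 in footprints (-2.96, SE 0.11, adjusted p = 8.37e-07), and HSP90AA1, the inducible HSP90, had 4300 and 4304, then 523 and 529 (-1.06). HSPA8, the constitutive HSP70, had 1448 and 1483, then 2447 and 2347 (2.68, but -0.35 on the deposited scale), the co-chaperone PTGES3 was at 3.23, and HSPE1, the small mitochondrial chaperonin subunit, at 5.97 (92.9 and 88.1, then 1459 and 1471). The names inducible and constitutive are background, since no unstressed cells were measured.

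Among chaperones and folding enzymes of the endoplasmic reticulum 17 of 22 lay above and 3 below (median 1.93). SSR2 and SEC61B, parts of the protein translocation site, were at 5.72 and 5.19, with SSR2 at 43.9 and 45.6 in inputs and 649 and 586 in footprints. MANF, a secreted stress factor, was at 3.87. HSPA5, the main HSP70 of the lumen, had 627 and 634, then 1061 and 1054 (2.71, SE 0.0477, adjusted p = 2.6e-08; -0.24 on the deposited scale), while HSP90B1, the HSP90 of the lumen, had 1391 and 1412, then 254 and 267 (-0.46, adjusted p = 0.000402), with a value of 0.0015 at an input minimum of 5 TPM.

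Metal and redox genes held some of the highest footprint values of all. Of 22 tested members of the NRF2, metal and iron list, 17 lay above and 2 below (median 3.19), and they took 1.44% and 1.35% of the input sum and 5.77% and 5.62% of the footprint sum. The metallothioneins, small metal-binding proteins known to be switched on by arsenite, were led by MT2A (chr16:56608584-56609497) with 5171 and 4648 rescaled TPM in inputs and 33851 and 33570 in footprints, a relative log2 ratio of 4.75 (SE 0.0644, adjusted p = 8.05e-09). MT1E went from 1310 and 1188 to 11414 and 10921 (5.13) and MT1X from 323 and 359 to 4511 and 4330 (5.66). PRDX1, a peroxiredoxin, was at 6.64 (135 and 155, then 3865 and 3557). HMOX1, heme oxygenase, was near the median: its inputs were 490 and 517, its footprints 191 and 155, and its ratio 0.42 (adjusted p = 0.0486). That call was lost without any 1 of 5 libraries, with adjusted p from 0.0831 to 0.292, and the value was -0.06 at a pseudocount of 10.

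The iron storage mRNAs, which carry a known iron-responsive element, were at or under the median. The part of this element in their values was not tested. FTH1, the heavy chain, had 2946 and 2861 rescaled TPM in inputs and 353 and 308 in footprints (-1.17, SE 0.103, adjusted p = 6.7e-05). FTL, the light chain, had 1752 and 1544, then 364 and 337, a value of -0.26 that did not pass (adjusted p = 0.0834). With the replicate block FTL passed (adjusted p = 0.0435), as it did without either QKI7 footprint library (adjusted p = 0.0277 and 0.0276). The zinc exporter SLC30A1 was at -0.68 (670 and 676, then 106 and 107).

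Of 26 stress granule proteins 10 lay above and 10 below (median 0.13, but -1.53 among entries with at least 0.2 TPM in footprints and -0.82 on the deposited scale). Over all entries 35.7% lay above and 31.2% below, and the counts in this paragraph are to be read beside these shares. G3BP1, the core of the granule, had 252 and 271 in inputs and 314 and 280 in footprints (2.15; -0.47 on the deposited scale), and the helicase DDX6 was at 2.47. The large proteins PRRC2C, PRRC2A and ATXN2 were at -1.29, -1.07 and -0.88. Of 23 immediate early and short-lived regulators 9 lay above and 7 below (median -0.17; -1.54 among entries with at least 0.2 TPM in footprints, -0.86 on the deposited scale, 0.26 at an input minimum of 5 TPM): IER3 at 2.54, KLF10 at 2.48 and the cell cycle inhibitor CDKN1A at 2.47 were the highest, the last with -0.05 on the deposited scale. EGR1 had 773 and 766 in inputs and 65.3 and 54.1 in footprints (-1.71), and MDM2, the p53 ligase, was at -1.15. FOS was at 0.64 (321 and 327, then 140 and 117; -1.17 among entries with at least 0.2 TPM in footprints) and JUN at -0.37 (adjusted p = 0.0117; 733 and 683, then 135 and 144). JUN lost its call without vector input 1 (adjusted p = 0.0766) and was at 0.09 at an input minimum of 5 TPM. MYC had 882 and 985, then 224 and 187, and did not pass (-0.21, adjusted p = 0.137); without 1 vector footprint library it passed, at -0.38 (adjusted p = 0.0298).

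**Figure D4:**
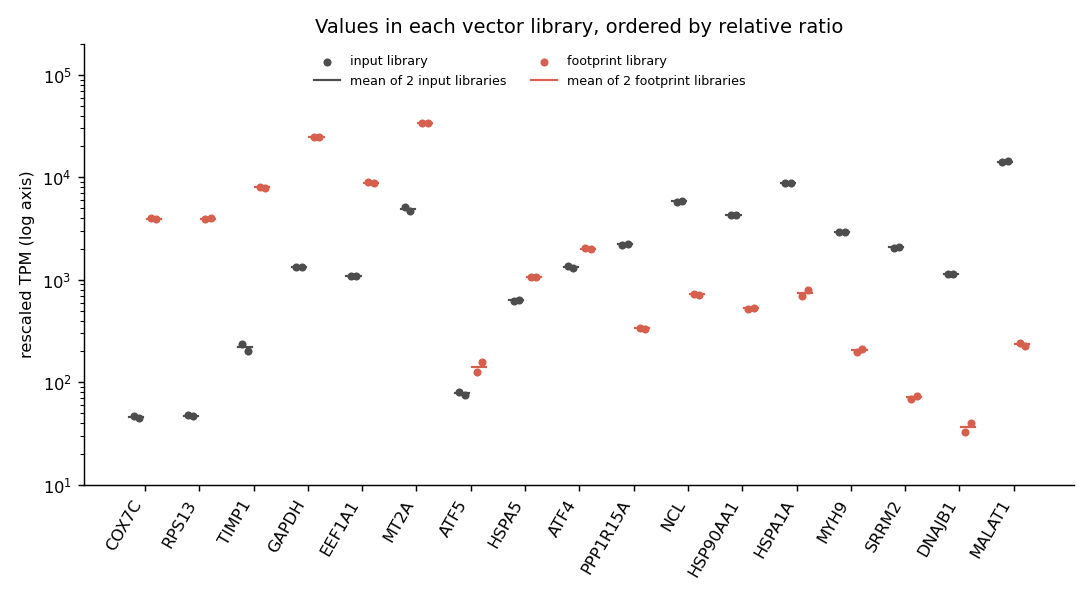
Rescaled TPM (log axis) of 17 genes in each of the 2 input and 2 footprint vector libraries, in order of relative ratio, with a bar at the mean of each pair. COX7C, RPS13 and TIMP1 lie far higher in footprints than in inputs, ATF4, ATF5 and HSPA5 lie modestly higher in footprints, and PPP1R15A, HSPA1A, SRRM2, DNAJB1 and MALAT1 lie far lower.

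All 48 tested nuclear genes of the respiratory chain lay above the median ratio, 46 of them by more than 2-fold, with a median of 4.28. Together they held 0.409% and 0.397% of the input sum and 2.90% and 2.96% of the footprint sum. The list has 77 genes, and 28 of those under the input minimum averaged 0.2 TPM or more in footprints. COX7C, a small subunit of cytochrome c oxidase (chr5:86617941-86620962), had 46.9 and 44.9 rescaled TPM in inputs and 3981 and 3885 in footprints. Its relative log2 ratio of 8.36 (SE 0.0707, adjusted p = 2.68e-09) was the highest in any of the lists of protein-coding genes. Other subunits of the same enzyme followed, COX7B at 7.19 (61.4 and 51.8, then 2232 and 2043) and COX6B1 at 6.80 (79.4 and 96.9, then 2606 and 2462). Over the 17 members without a named pseudogene the median was 2.97. Only 4 of 41 respiratory chain genes with a promoter sequence have the pyrimidine start (9.76%), COX7C among them.

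Among glycolytic enzymes 12 of 17 lay above and none below (median 2.21, or 0.32 over the 7 without a named pseudogene). GAPDH, with 65 named pseudogenes, had 1338 and 1325 in inputs and 24961 and 24728 in footprints (6.19, SE 0.0351, adjusted p = 1.17e-09). The lactate dehydrogenase subunits LDHA and LDHB were at 6.05 and 5.54. Of 17 cholesterol synthesis genes 13 lay above and 3 below (median 1.47). EBP, a sterol isomerase, had 26.6 and 43.0, then 126 and 147 (3.94), and ACAT2, which makes acetoacetyl-CoA, was at 3.24.

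All 28 tested proteasome subunits lay above (median 2.84), led by PSMA4 of the core ring (45.4 and 39.4 rescaled TPM in inputs, 905 and 916 in footprints, 6.36), PSMB3 (6.30) and PSMB1 (5.42). All 13 subunits of the folding complexes TRiC and prefoldin lay above too, each by more than 2-fold (median 3.07, and 3.17 over the 5 without a named pseudogene). PFDN6 had 95.4 and 93.1, then 896 and 768 (5.09), PFDN5 was at 4.93 and CCT8 at 3.76.

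Of 32 tubulin and actin cytoskeleton genes 22 lay above and 7 below (median 2.39, 0.22 over the 15 without a named pseudogene and -0.16 on the deposited scale). The alpha tubulins TUBA1B and TUBA1C, which are close in sequence, had inputs of 178 and 153 and of 148 and 168, and footprints of 4735 and 5101 and of 3375 and 3170 (6.85 and 6.33). The small actin binder TMSB4X was at 6.11, and its relative TMSB10 had 6743 and 7003 in inputs and 11288 and 12063 in footprints (2.73; -0.35 on the deposited scale). ACTB, beta actin, had 4663 and 4481, then 5491 and 5352 (2.21; -0.85 on the deposited scale). The lowest called members were MYH9, FLNA and TPM4. MYH9, nonmuscle myosin (chr22:36281280-36387967), had 2924 and 2946, then 198 and 213 (-1.86, SE 0.0718, adjusted p = 9.81e-07). FLNA, filamin, had 1938 and 1836, then 187 and 189 (-1.36), and TPM4, a tropomyosin, was at -1.25. PLEC, plectin, had 3448 and 3230, then 233 and 236 (-1.86). PPIA, the abundant prolyl isomerase cyclophilin A, was at 6.12.

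Of 23 tested extracellular matrix and secreted proteins 11 lay above and 9 below (median 0.26, but -0.88 among entries with at least 0.2 TPM in footprints and -1.08 on the deposited scale). These counts stand beside 35.7% above and 31.2% below over all entries. TIMP1, a secreted inhibitor of matrix proteases (chrX:47582436-47586789), had 236 and 202 rescaled TPM in inputs and 8073 and 7914 in footprints, a relative log2 ratio of 7.15 (SE 0.0752, adjusted p = 3.75e-09). The growth regulator CTGF was at 4.08 (205 and 201, then 915 and 855). The lowest called members were the collagens COL5A1, COL4A2 and COL4A1. COL5A1 had 245 and 233, then 7.78 and 12.4 (-2.50), and COL4A2 had 972 and 986, then 79.3 and 72.6 (-1.70). COL4A1 was at -1.57. Another collagen, COL1A1, had 472 and 423, then 49.8 and 47.9 (-1.20). Collagens were not tested as a family. Of the mesenchymal markers, LGALS1, galectin 1, was at 5.46 (659 and 630, then 7106 and 7483) and S100A6 at 5.58, while CALD1, caldesmon, was at -0.54 (-0.089, not called, at an input minimum of 5 TPM).

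Of 33 mitosis genes 20 lay above and 8 below (median 0.64; -0.66 among entries with at least 0.2 TPM in footprints, -0.60 on the deposited scale). The kinase CDK1 had 32.2 and 27.1 in inputs and 166 and 158 in footprints (4.38), TTK, a spindle checkpoint kinase, was at 3.27 and CCNB1, cyclin B1, at 2.72. MKI67, the proliferation marker that coats mitotic chromosomes, had 844 and 899, then 42.0 and 43.3 (-2.35, SE 0.0912, adjusted p = 1.01e-06), the motor KIF4A was at -1.95 and the kinetochore protein CENPF at -1.50. Of 28 DNA replication genes 22 lay above and 3 below (median 1.62): the sliding clamp PCNA went from 68.8 and 71.7 to 1125 and 1141 (5.96), RPA3 was at 5.28 and RRM1, of ribonucleotide reductase, at 4.15, while POLE, the catalytic subunit of a replicative polymerase, had 232 and 220, then 9.33 and 7.73 (-2.61). H2AFZ, the replication-independent histone H2A.Z, had 202 and 179, then 4606 and 5083 (6.63).

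Of 31 hnRNP and SR splicing factors 25 lay above and 3 below (median 0.90; -0.85 among entries with at least 0.2 TPM in footprints, -1.04 on the deposited scale), led by SRSF3 (4.37; 178 and 158, then 913 and 869), HNRNPDL (3.71) and HNRNPK (3.32). The list of CLK kinases and nuclear factors, many of which are known to keep introns or to be held in the nucleus, was low: 4 of 24 lay above and 17 below, with a median of -0.85. NKTR, a nuclear cyclophilin, had 347 and 375 in inputs and 12.4 and 6.18 in footprints (-3.24), and SRRM2, the scaffold of nuclear speckles (chr16:2752638-2771412), had 2052 and 2087, then 68.4 and 74.2 (-2.87, SE 0.061, adjusted p = 5.36e-08). Among the members above the median was the helicase DDX5 at 2.48 (969 and 998, then 1416 and 1388; -0.50 on the deposited scale). NCL, nucleolin, among the 10 most abundant protein-coding entries, had 5709 and 5937, then 726 and 719 (-1.04).

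The 12 lowest protein-coding entries with an input of at least 5 TPM mostly have close copies in the genome or belong to duplicated families: CBS, POLR2J3, LUC7L2, NPIPB5, CCZ1B, POTEE, POTEG, RGPD6, POTEM, BAGE5, NBPF8 and NBPF9. CBS, POLR2J3, LUC7L2 and CCZ1B were listed at 0 in both footprint libraries, and no fold is given for them. POTEE had 1418 and 1440 rescaled TPM in inputs and 17.1 and 6.18 in footprints (-5.00). The sources used here do not tell how reads were divided between such copies, so these values are uncertain. The calls of NPIPB5, BAGE5 and POTEG were lost in some fits without 1 library, among them the fit without vector input 1 (adjusted p = 0.114, 0.145 and 0.0572).

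A second set, chosen after these values had been seen, required footprints averaging 0.2 TPM or more. Besides POTEH, DNAJB1, SRRM2 and MKI67, its lowest members include ATN1, atrophin, with 1423 and 1428 in inputs and 60.7 and 41.7 in footprints (-2.83), SLTM, a chromatin-associated RNA binder, with 794 and 817, then 38.9 and 29.4 (-2.57), and TNRC18 with 1124 and 1063, then 54.4 and 54.1 (-2.34). KTN1, kinectin, was at -2.29, the splicing factor LUC7L3 at -2.18 (1451 and 1527, then 82.4 and 83.5), the cytoskeletal linker DST at -2.04, the tumour suppressor NF2 at -2.03 and the exchange factor TRIO at -1.96.

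Transcription regulators of the zinc finger family had a median of -0.17, with 10 of 36 above and 15 below. Over all entries 35.7% lay above and 31.2% below. The list median was -1.23 at an input minimum of 5 TPM (8 members). It was -0.84 among entries with at least 0.2 TPM in footprints (9 members). ZNF609 had 226 and 237 in inputs and 6.22 and 4.64 in footprints (-3.22), ZNF532 was at -2.55 and ZNF462 at -2.27, and ZNF330 was the highest at 2.17. Only 9 of the 36 reached a mean footprint of 0.2 TPM, so most of these values rest on footprints near the smallest step of the table. In the Hippo pathway list 6 of 18 lay above and 8 below, beside 35.7% and 31.2% of all entries (median -0.24, and 0.39 at an input minimum of 5 TPM). ANKRD1, a YAP target, had 3435 and 3717, then 2386 and 2392 (1.39; -0.42 among entries with at least 0.2 TPM in footprints), and TEAD2, a DNA-binding partner of YAP, had 77.9 and 97.4, then 3.11 and 1.55 (-2.80).

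The 208 tested lncRNAs had a median relative log2 ratio of -0.95, with 47 above and 87 below, and the 182 pseudogenes had -1.52, with 27 above and 87 below, beside 0.05 for 6891 protein-coding entries. MALAT1, a nuclear speckle RNA (chr11:65497738-65506516), had 14033 and 14376 rescaled TPM in inputs and 244 and 227 in footprints (-3.94, SE 0.0606, adjusted p = 1.5e-08). NEAT1, the scaffold of paraspeckles, had 609 and 639, then 17.1 and 20.1 (-3.03). TUG1, matched here to a protein-coding RefSeq gene and so not among the 208, was at -2.39. Of 10 tested RNAs on the list of nuclear-retained RNAs 6 lay below and 2 above. LINC00152, on that list, was at 5.11 (175 and 169, then 1517 and 1525). Where the RNAs of this list lie in these cells was not measured. Of 15 snoRNA host transcripts 11 lay above and 1 below (median 2.56), with SNHG8 at 6.02 and ZFAS1 at 3.91.

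Several entries with high footprint values are structured RNAs that no ribosome is known to translate. Of the 4 tested structured RNAs 3 lay above and 1 below (median 0.84; -0.96 among entries with at least 0.2 TPM in footprints, -1.55 on the deposited scale). VTRNA1-1, a vault RNA, had 320 and 351 in inputs and 57581 and 58465 in footprints, a relative log2 ratio of 9.40. RMRP, the RNA of an RNA-processing enzyme, had 12224 and 10233, then 6046 and 6378 (1.12; -0.69 among entries with at least 0.2 TPM in footprints and -1.94 on the deposited scale), and RPPH1, the RNA of ribonuclease P, had 51816 and 47034, then 3366 and 4169 (-1.75). MTRNR2L8 and MTRNR2L2, nuclear copies of the mitochondrial large ribosomal RNA, had 76.9 and 72.0 and 217 and 188 in inputs and 35447 and 35685 and 16688 and 16216 in footprints (10.85 and 8.31). The division of reads between these copies and that RNA is uncertain, and whether the copies are translated was not tested. Fragments of 17 to 34 nt can come from structured RNAs and RNA-protein complexes as well as from ribosomes, and the part of this in the values of mRNAs was not tested. The pseudogene ATP5EP2, at 6.43, is a near copy of a subunit of ATP synthase.

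Gene features moved with the ratio across the table. By quartile groups of gene span, the distance between the ends of a protein-coding gene in the genome, the median relative log2 ratio was 0.95, 0.24, -0.09 and -0.65 from the shortest to the longest. By quartile groups of input level it was 0.31, 0.20, -0.12 and -0.44, where the input enters both sides. Grouped likewise by the GC content of the first 50 transcribed bases it was 0.49, 0.32, -0.01 and -0.48 from the lowest GC to the highest. The 5535 protein-coding entries with no named pseudogene had a median of -0.14, the 1084 with 1 to 4 had 0.78, and the 272 with 5 or more had 3.04. The part of each of these features in the result was not tested.

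**Figure D5:**
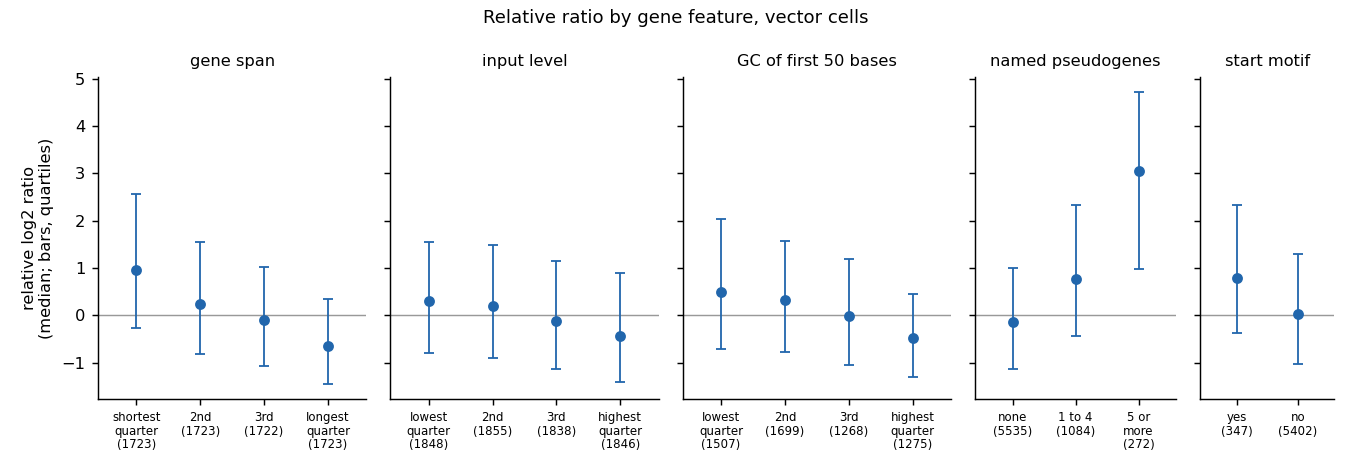
Median relative log2 ratio (points) with the lower and upper quartiles (bars) for entries grouped by gene span, input level, GC content of the first 50 transcribed bases, number of named pseudogenes and the C plus 4 pyrimidines at the start; numbers of entries are in parentheses. The median falls from 0.95 to -0.65 with gene span and climbs from -0.14 to 3.04 with named pseudogenes.

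The input minimum decided which entries could be seen. The 217 entries just inside it, with a mean of 1 to 1.05 TPM, had a median footprint of 0.06 TPM as deposited and 10 of them were at 0. The 208 just outside it, from 0.95 to 1 TPM, had a median of 0.05 TPM and 16 were at 0. Of 16907 entries under the minimum, 137 averaged 1 TPM or more in footprints, and they are not described here.

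Cells that overexpress QKI7, under the same arsenite exposure, were set beside the vector cells with a test of the difference. The median log2 ratio was -1.70 in QKI7 cells, and the interaction of library type and construct, on the relative scale, passed for 319 of 7387 entries (4.32%), 166 with a higher and 153 with a lower ratio in QKI7 cells. QKI itself, the overexpressed gene, had 76.4 and 81.9 rescaled TPM in vector inputs and 88.7 and 102 in vector footprints (relative log2 ratio 2.23), and a ratio of -1.26 in QKI7 cells, a difference of -3.49 (adjusted p = 5.21e-05). The list medians were 4.38 in vector and 4.25 in QKI7 cells for large-subunit proteins, 4.79 and 4.64 for small-subunit proteins, 4.28 and 3.70 for the respiratory chain, and -0.85 and -0.88 for the CLK list. ATF4 (2.57 and 2.30) and PPP1R15A (-0.74 and -0.77) had no difference that passed (adjusted p = 0.0727 and 0.920).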

How the data were processed

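The authors deposited 1 table of TPM (a share of each library's transcripts, corrected for their length) for 8 libraries. Per the submitters' processing notes, STAR, RSEM 1.2.31 and GRCh38 were used; strand handling and annotation are not given in the sources used here. TPM keeps no read depth, so no counting interval is given. A length correction depends on the fragment length assumed, which differs between input RNA and footprints. Entries were matched to RefSeq (GRCh38.p14) by symbol (6942), older symbol (344) or not (101). Of the kept entries, each library was rescaled to equal sums, a pseudocount of 1 was added, and log2 values were fitted with limma 3.58.1 in R 4.3.3 (4 group means over 8 libraries, 4 residual degrees of freedom, eBayes with a variance trend, two-sided, Benjamini-Hochberg, threshold 0.05). The contrast was vector footprint minus vector input.

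The 33 gene lists, their members and the comparison were chosen with earlier results of these data known. Named genes came from the 12 highest and 12 lowest protein-coding entries that were called, had non-overlapping libraries and an input of at least 5 TPM; the 8 highest and lowest others; up to 3 called members per list and direction; the 10 highest inputs; and a fixed set of stress and translation genes. The text describes 171 of the 210 so chosen; an item withheld for evaluation is not reported here. Same-numbered input and footprint libraries did not deviate together (r = 0.0022 in vector and -0.013 in QKI7 cells), so the numbers were not used as pairs. A planned split by protein length was replaced by gene span. Alternatives are in the closing section.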

Additional observations from a re-analysis of the deposited data

Results flagged for a closer look

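For 36 of the named genes the footprint ratio differed between QKI7 and vector cells by the interaction term of the limma fit. Values are QKI7 minus vector on the relative log2 scale. Over all entries the same term passed for 4.32%. Most named genes were chosen by their vector ratio, which enters this difference, so the 36 cannot be set against that share. Of the 153 entries lower in QKI7 cells, 141 were above the median in vector cells. Of the 166 higher ones, 124 were below it. Whether any difference below goes beyond this general pattern was not tested. Among translation genes the differences were -1.29 for RPS13, -0.48 for RPL35A, 0.65 for RPS26, 0.53 for RPL38, -0.46 for EEF1A1, -1.0 for TPT1 and -0.79 for EIF1. Among stress, metal and folding genes they were -1.26 for ASNS, -0.67 for HSPE1, -0.61 for HSPA8, -0.86 for PRDX1, -0.44 for MT1E, 1.05 for FTH1, -0.57 for G3BP1, -1.15 for KLF10, -1.03 for PSMA4 and -0.74 for CCT8. Among structural genes they were -1.02 for TUBA1B, -1.19 for TUBA1C, 0.67 for TMSB10, 0.61 for MYH9, 0.62 for FLNA, 0.94 for PLEC and 0.63 for COL4A2. Among metabolic, replication and RNA genes they were -0.38 for LDHB, -0.55 for PCNA, -1.13 for RRM1, -0.41 for HNRNPK, -0.38 for DDX5, 0.44 for LUC7L3, 0.47 for MALAT1, -1.21 for ZFAS1 and 0.73 for VTRNA1-1. The others were 2.44 for TEAD2, 1.22 for TNRC18 and -3.49 for QKI, the overexpressed gene.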

How the results depend on the processing

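TPM keeps no depth, and footprints near the smallest step of the table limit the low ratios. Counts of called entries moved with the entries tested. At an input minimum of 5 TPM (1798 tested) they were 1715 on the equal-sum scale (237 higher, 1478 lower) and 1426 relative to the median (742 above, 684 below). At 0.2 TPM (13086 tested) they were 10473 (1482 higher, 8991 lower) and 7553 (4147 above). With a footprint minimum of 0.2 TPM (2674 tested) they were 2088 (619 higher, 1469 lower) and 2049 (1020 above, 1029 below). With libraries centred on their medians 2331 were higher and 2753 lower, on the deposited scale 155 were higher, and beyond 2-fold 481 were higher and 2394 were called relative to the median (1583 above, 811 below). With the replicate block 6405 and 4727 entries were called on the 2 scales, beside 6482 and 4940; EEF2 lost its call (adjusted p = 0.0632) and FTL gained one (0.0435). Leaving out 1 library gave 5911 to 6632 and 3846 to 5331.

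On the deposited scale these list medians turned: other TOP mRNAs -0.088, initiation factors -0.29, tRNA synthetases -0.62, uORF regulators -0.015, ATF4 targets -0.17, heat shock -1.0, tubulin and actin -0.16, mitosis -0.60, hnRNP and SR -1.04 and structured RNAs -1.55. With the footprint minimum, tRNA synthetases were at -0.41, uORF regulators -0.081, heat shock -0.82, mitosis -0.66, hnRNP and SR -0.85 and structured RNAs -0.96. Medians closer to 0 turned too: stress granule proteins to -0.82 (deposited scale), -1.53 (footprint minimum), -0.22 (pseudocount 10) and -0.10 (input minimum 0.2 TPM), extracellular matrix to -1.08, -0.88 and, at pseudocount 10, -0.041. At an input minimum of 5 TPM immediate early genes were at 0.26 and the Hippo list at 0.39; over entries with no named pseudogene, an alternative added after seeing the data, immediate early genes were at 0.15.

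Of the named genes, those that turned on the deposited scale were RPL19 -1.96, RPL4 -2.01, RPL35 -1.66, EEF2 -2.60, TPT1 -0.44, EIF5 -0.87, ATF4 -0.44, DDIT3 -1.97, PPP1R15B -0.17, IFRD1 -0.26, HSPA8 -0.35, HSPA5 -0.24, HMOX1 -1.81, G3BP1 -0.47, CDKN1A -0.053, FOS -1.42, TMSB10 -0.35, ACTB -0.85, DDX5 -0.50, RMRP -1.94 and ANKRD1 -1.62. With the footprint minimum they were RPL19 -0.73, RPL4 -0.82, RPL35 -0.44, EEF2 -1.63, EIF5 -0.73, DDIT3 -1.37, PPP1R15B -0.46, IFRD1 -0.78, HMOX1 -1.38, FOS -1.17, RMRP -0.69 and ANKRD1 -0.42. At a pseudocount of 10, EEF2 was at -0.34, DDIT3 at -0.063 and HMOX1 at -0.060. EEF2 was at -0.057 at an input minimum of 0.2 TPM, and at 5 TPM PABPC1 was at 0.16, HSP90B1 at 0.0015 and JUN at 0.090. The zero point differs between these settings. With the footprint minimum it is the median of the 2674 entries left, whose log2 ratio was -0.73 rather than -1.97. Relative values there are counted from that higher median. On the deposited scale most footprint values are under the pseudocount. Any further part in these turns was not tested. The split by protein length was not run.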
